A study of Mus musculus with 8 samples.

Results

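The mitogen-activated protein kinase (MAP kinase) cascade genes and the dual-specificity phosphatases were followed in mature CD8 single-positive (CD8SP) thymocytes. The members were all protein-coding genes whose mouse symbol is Map4k, Map3k, Map2k, Mapk or Dusp followed by a number. There were 67 of them among the 47937 genes of the count table, namely 5 Map4k, 18 Map3k, 7 Map2k, 13 Mapk and 24 Dusp genes. The rule used the symbols alone, but it was set with earlier results of these data known. CD8SP TCRb+ MHC-I high cells were sorted from thymi of mice aged 6 to 7 weeks, and total RNA was sequenced after depletion of ribosomal RNA. Ndrg3ctrl mice carried the genotype Ndrg3 +/fl;Lck-cre+ and Ndrg3TKO mice the genotype Ndrg3 fl/fl;Lck-cre+, with 4 libraries in each group. Both groups thus carried the Cre transgene and at least 1 floxed allele, and the controls were heterozygous after deletion rather than wild type. The proximal Lck promoter drives Cre from an early thymocyte stage, in developing T cells before the sorted stage. The labels call the libraries biological replicates, and the p-values measure the spread between these 8 libraries.

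A MAP kinase cascade is a relay of kinases. Map4k and Map3k enzymes receive the upstream signal, Map2k enzymes are phosphorylated by them, and a Map2k enzyme in turn phosphorylates a MAP kinase on a threonine and a tyrosine of its activation loop. The ERK, JNK, p38 and ERK5 branches use separate Map2k enzymes. Many Dusp proteins are MAP kinase phosphatases, which remove both phosphates, and several of their genes are themselves induced by ERK activity. In thymocytes, ERK signalling from the T cell receptor takes part in positive selection, and JNK and p38 signalling have been linked to negative selection.

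The sites on which kinases and phosphatases meet are short and differ by branch, and they are shown to tell the measured MAP kinases apart. They were read from the longest open reading frame of each gene in the GENCODE M21 transcripts, with positions on GRCm38. Capitals mark the threonine, middle and tyrosine codons of the activation loop. The middle codon encoded glutamate in the ERK and ERK5 genes, proline in the JNK genes and glycine in the p38 genes, and 11 of the 13 Mapk genes held such a site.
Mapk3, ERK1 (chr7:126763449-126763475, plus strand): ggctttctgACGGAGTATgtggccaca
Mapk7, ERK5 (chr11:61491413-61491439, minus strand): tacttcatgACTGAGTATgtggctact
Mapk8, JNK1 (chr14:33392994-33393020, minus strand): tttatgatgACGCCTTATgtggtgact
Mapk9, JNK2 (chr11:49872821-49872847, plus strand): tttatgatgACTCCCTATgtggtaact
Mapk14, p38 alpha (chr17:28728390-28728416, plus strand): gatgagatgACAGGCTACgtggctacc
Mapk11, p38 beta (chr15:89145857-89145883, minus strand): gaggagatgACCGGATATgtggccaca

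On the phosphatase side, 22 of the 24 Dusp genes encoded the catalytic signature that runs from a histidine and a cysteine to an arginine, and Dusp27 and Dusp28 did not. Capitals mark the codons from that histidine to that arginine. The sites of Dusp2 and Dusp1, MAP kinase phosphatases of the nucleus, and of Dusp18, a small phosphatase without a MAP kinase binding domain, are shown because the results below turn on these genes.
Dusp2 (chr2:127337607-127337648, plus strand): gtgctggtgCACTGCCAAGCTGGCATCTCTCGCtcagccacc
Dusp1 (chr17:26506583-26506624, minus strand): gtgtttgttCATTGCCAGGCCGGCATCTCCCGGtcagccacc
Dusp18 (chr11:3897309-3897350, plus strand): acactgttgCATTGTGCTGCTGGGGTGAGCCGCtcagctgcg

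Library totals ran from 21126698 to 30048212 counts in the controls and from 29699102 to 32668081 in Ndrg3TKO, which were mostly the deeper libraries. A 2-sided exact permutation test gave p = 0.0571, where the smallest possible p is 0.0286. With so few libraries this does not show that depth was equal. Ndrg3, the targeted gene, fell in every Ndrg3TKO library, to 1401 to 1600.0 normalised counts against 2292 to 2357 in the controls (log2 fold change -0.64, SE 0.0526). Transcripts of the gene were thus still counted in Ndrg3TKO, over all of its exons together. Normalised counts are counts scaled to the mean library size after TMM correction for composition. CPM are counts as a share of the library size after the same TMM correction, on the usual scale. Cd8a lay between 1310 and 1390 CPM in every library and Cd4 at or under 1.48 CPM. The erythroid markers Hbb-bs and Hba-a1 had no count in any library. The summed level of 4 NK cell markers was 29.1 to 34.0 CPM in the controls and 31.5 to 49.7 CPM in Ndrg3TKO. Most of it was Klrd1, at 28.4 to 32.8 and 29.6 to 47.3 CPM, which was not called (log2 fold change 0.31, edgeR adjusted p = 0.32). Klrb1c was called higher, at 0.11 to 0.639 CPM in the controls and 1.48 to 2.04 CPM in Ndrg3TKO. Gzma was not called (log2 fold change -0.02), and Ncr1 was at 0 throughout. Y-linked transcripts were present in 1 control and 2 Ndrg3TKO libraries, those labelled Ndrg3ctrl replicate 2 and Ndrg3TKO replicates 2 and 3, so the groups were not balanced for them.

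Of the 67 genes, 50 passed the filter on low counts and were tested. Only 3 were called at a Benjamini-Hochberg adjusted p under 0.05 over all genes tested (edgeR quasi-likelihood test), and all 3 were higher in Ndrg3TKO. They were Map3k13 and Map3k8, both kinases at the entry of cascades, and the phosphatase Dusp18. No member was called lower, where DESeq2 and limma-voom also called 0 members and the fit with a Y-linked covariate called 1, Dusp2. With the replicate number as a block Dusp2 was called lower, and with block and covariate together Dusp2 and Dusp4 were. The block fit called 800 genes over the whole table in either direction, and the fit with block and covariate 1187. A negative difference at an unadjusted p under 0.05 was found for 3 members. The table as a whole had 168 called genes of 14633, or 1.15%, with 0.793% called higher and 0.355% called lower. Dusp18 passed the filter through the Ndrg3TKO libraries alone, so 2 of the 3 calls, Map3k8 and Map3k13, can be read beside these shares. Leaving out a library gave 0 to 3 members called higher, with 0 without Ndrg3ctrl replicate 1 and 1 without Ndrg3ctrl replicate 4, Ndrg3TKO replicate 1 or Ndrg3TKO replicate 3. The other 47 tested members lay between -0.25 (Dusp4) and 0.28 (Map3k15) on the log2 scale. The median log2 fold change of the members was 0.00, as was that of all genes tested. Of the members, 68.0% differed by less than 0.1, beside 54.6% of all genes, which were not matched to them for level. An unadjusted p under 0.05 was found for 6 members (10.9% of all genes).

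The groups did not overlap in 4 members, Map3k8, Map3k13, Dusp18 and Mapk14, all higher in Ndrg3TKO. Among all genes tested, 7.04% did not overlap, with 3.44% higher and 3.59% lower. Dusp18 passed the filter through the Ndrg3TKO libraries alone, so only Map3k8, Map3k13 and Mapk14 can be read beside these shares.

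**Figure D1:**
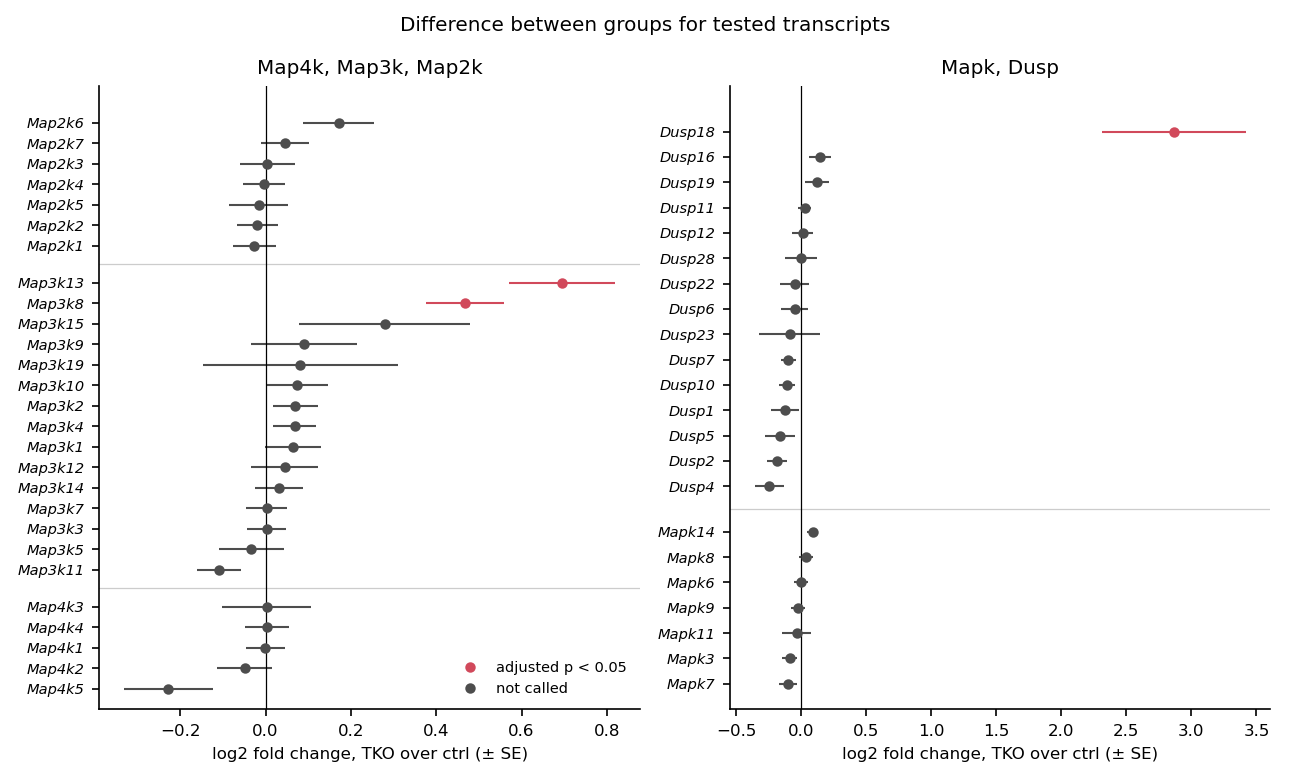
Log2 fold change of Ndrg3TKO over Ndrg3ctrl with its standard error for the tested members reported here, by family; the scales of the panels differ. The 3 called genes are in red, and the others lie between -0.25 and 0.28.

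Map3k8, also called Tpl2 or Cot, is the kinase that links NF-kappaB signalling to MEK and ERK and is held inactive by the NF-kappaB precursor p105. Its normalised counts were 531, 688, 619.7 and 619 in control replicates 1 to 4 and 719.8, 898, 888 and 884 in Ndrg3TKO replicates 1 to 4. Every Ndrg3TKO library lay above every control, and Ndrg3TKO replicate 1 sat apart from the other three, close to the highest control. The means were 614 ± 64.1 and 847 ± 85.3 (SD, n = 4), a 1.38-fold difference (log2 fold change 0.47, SE 0.0912, edgeR adjusted p = 0.0221). Among the libraries with Y-linked transcripts the control had 688 and the Ndrg3TKO libraries 888 and 898, and among the others the controls had 531 to 619.7 and the Ndrg3TKO libraries 719.8 and 884. The call was lost on leaving out Ndrg3ctrl replicate 1, 3 or 4 or Ndrg3TKO replicate 2, 3 or 4 (edgeR adjusted p = 0.0769, 0.0746, 0.0572, 0.0516, 0.0775 and 0.0819), with the log2 fold change between 0.40 and 0.54 whichever library was left out. No gene overlaps its exons, and its nearest tested neighbours, Gm10557 and Mtpap, had log2 fold changes of 0.01 and 0.01.

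Map3k13, also called LZK, is a leucine zipper-bearing kinase that acts upstream of JNK. It lies at chr16:21794346-21933439 on the plus strand. Its normalised counts were 112, 108, 131 and 117 in the controls and 217, 183, 188 and 174 in Ndrg3TKO. The lowest Ndrg3TKO library stood well above the highest control. The means were 117 ± 10.04 and 190.4 ± 18.5 (SD, n = 4), a 1.62-fold difference (log2 fold change 0.69, SE 0.125, edgeR adjusted p = 0.0123). Within the libraries that held Y-linked transcripts the control was at 108 and the Ndrg3TKO libraries were at 183 and 188, and within the others the controls reached 131 and the lower Ndrg3TKO library was at 174. The adjusted p was 0.0514 without Ndrg3ctrl replicate 1 and also 0.0514 without Ndrg3TKO replicate 1, and the call held without any other library.

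In GENCODE M21 a long noncoding RNA gene, 1300002E11Rik (chr16:21794318-21809040), starts 28 bases before Map3k13 on the same strand. It shares 227 exonic bases with Map3k13, or 2.61% of the Map3k13 exons. A RefSeq start of Map3k13 lies at chr16:21891969, 97623 bases after the GENCODE start and past the end of 1300002E11Rik. Which start was used in these cells was not tested. The normalised counts of 1300002E11Rik were 1369, 1121, 1371 and 1317 in the controls and 1790.5, 1498, 1643 and 1803 in Ndrg3TKO, which did not overlap either. It was called higher too (log2 fold change 0.38, SE 0.0759, edgeR adjusted p = 0.0272), but not without any one of 6 libraries, namely Ndrg3ctrl replicates 1, 3 and 4 and Ndrg3TKO replicates 1, 3 and 4 (adjusted p from 0.0609 to 0.115), nor by limma-voom (adjusted p = 0.0502) or with library totals alone (0.0642). Its counts were 8.21 to 12.2 times those of Map3k13 in the same library. How reads from the shared bases were assigned to either gene was not tested. The neighbours outside the shared region, Ehhadh and Tmem41a, had log2 fold changes of 0.04 and 0.06.

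**Figure D2:**
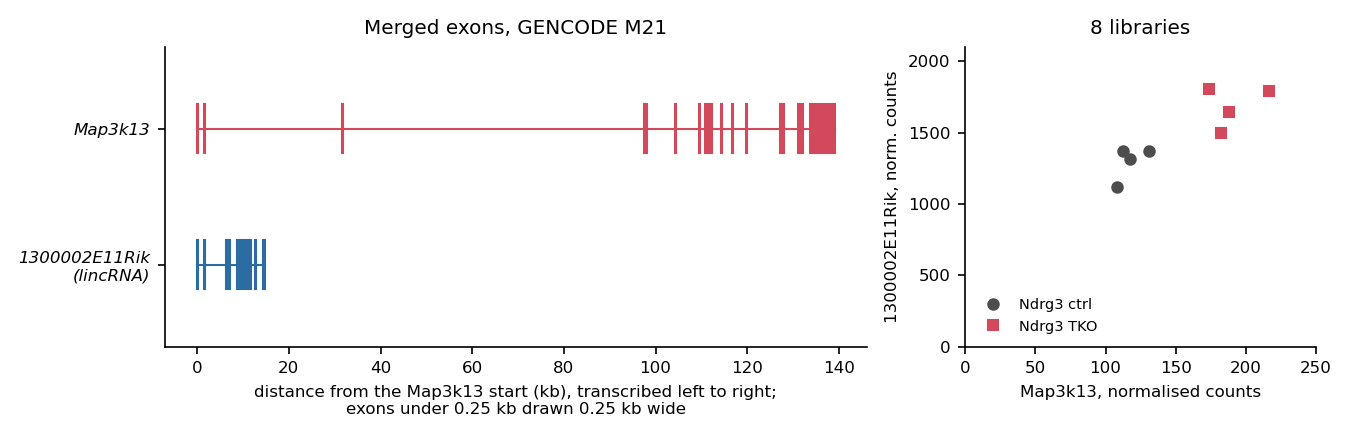
Left, merged GENCODE M21 exons of Map3k13 and of the long noncoding RNA gene 1300002E11Rik, in kb from the GENCODE start of Map3k13. Right, normalised counts of the 2 genes in each of the 8 libraries, where the Ndrg3TKO libraries lie above and to the right of the controls on both axes.

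Dusp18 was close to absent in the controls. Its raw counts were 1, 2, 5 and 0 in control replicates 1 to 4 and 19, 17, 23 and 12 in Ndrg3TKO replicates 1 to 4, or 0.97, 2.84, 4.89 and 0 against 18.2, 15.4, 22.2 and 10.7 normalised counts. All 4 Ndrg3TKO libraries were above all controls, and the raw count of 3 of the 4 controls was at or under 3. The means were 2.18 ± 2.16 and 16.6 ± 4.86 normalised counts (SD, n = 4). The summed counts were 8 and 71, which gave a ratio of 7.63 with an exact 95% counting interval of 3.67 to 18.4. Intervals and floors cover counting error only. edgeR called the gene higher (log2 fold change 2.87, SE 0.552, adjusted p = 0.0203), a fold that depends on its prior count. Dusp18 passed the filter through the Ndrg3TKO libraries alone, so its place among the tested genes rested on the group in which it was high. It was not called without Ndrg3ctrl replicate 1 or 4 or Ndrg3TKO replicate 1 or 3 (adjusted p = 0.0869, 0.0539, 0.0617 and 0.0746). Within the libraries that held Y-linked transcripts, the control had 2.84 and the Ndrg3TKO libraries 15.4 and 22.2 normalised counts.

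Dusp18 lies at chr11:3895240-3901296 on the plus strand, and 4921536K21Rik ends 141 bases before it on the minus strand, so that the 2 genes are transcribed away from each other. The bases between both starts are shown because they hold the sequence just upstream of the called gene. The stretch is from RefSeq (GRCm38.p6), with 59.6% G and C and 11 CpG dinucleotides, and capitals mark a GC box.
Dusp18 upstream stretch (chr11:3895099-3895239, plus strand): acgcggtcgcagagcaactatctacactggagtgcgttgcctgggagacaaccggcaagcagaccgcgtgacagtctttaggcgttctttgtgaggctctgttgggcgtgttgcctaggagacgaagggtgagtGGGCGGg

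The GC box, GGGCGG on either strand, was found in 38 of the 52 members that had a RefSeq promoter of 250 bases before and 50 after the start, and in 35.7% of the 32851 promoters of that table. The members were counted by gene, with a match in any promoter of the gene. The whole table was counted by promoter, with 32851 promoters for 27025 symbols, so these shares are not counted alike. The Dusp18 promoter held none of the AP-1 (TGANTCA), cyclic AMP response (TGACGTCA), ETS (CCGGAAG), T-box (AGGTGTGA), TATA box (TATAAA) and CCAAT box letters, which stood in 7.81%, 1.79%, 8.86%, 1.28%, 13.6% and 37.4% of all promoters. 4921536K21Rik had at most 2 counts in any library. Slc35e4, on the other side of Dusp18, had 2 to 14 counts, highest in a control, and neither gene was tested. The nearest tested genes, Morc2a and Tcn2, had log2 fold changes of -0.03 and 0.05.

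**Figure D3:**
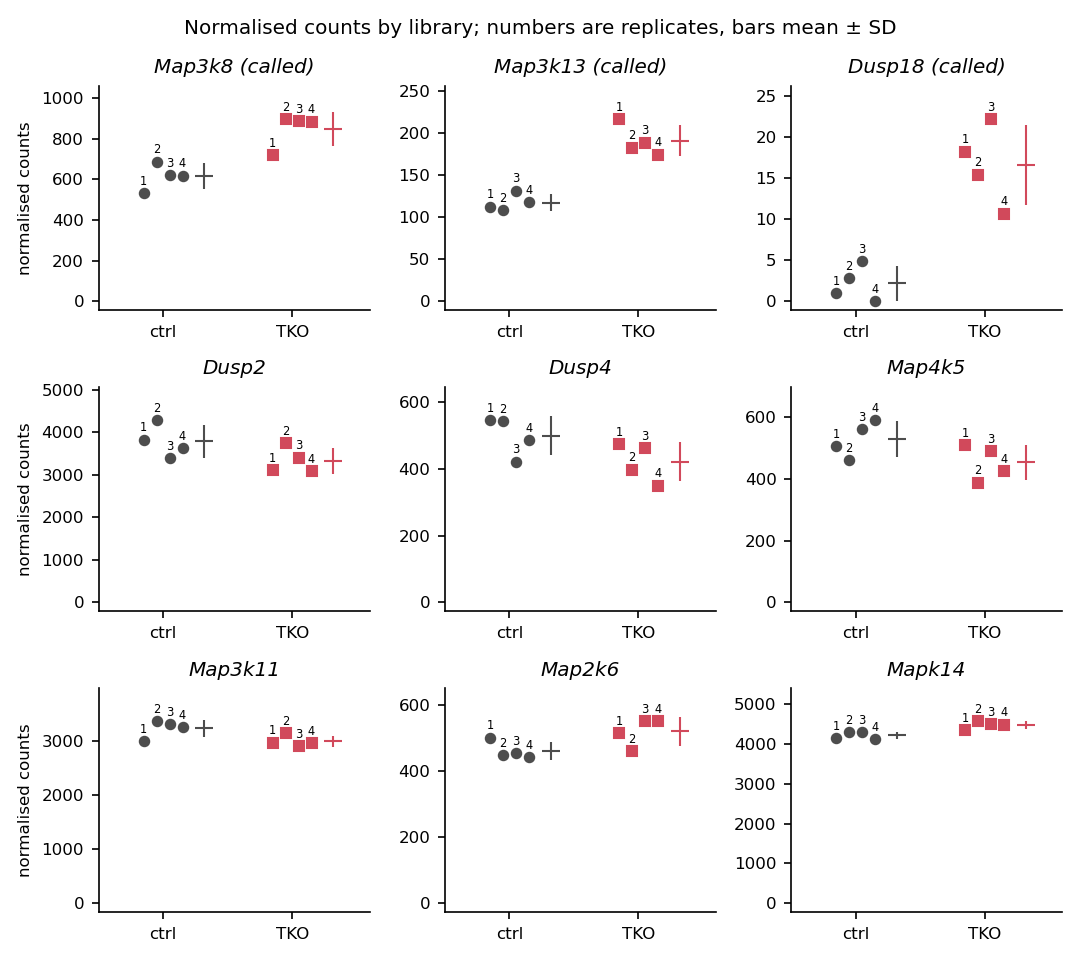
Normalised counts of the 3 called members and of the 6 members with the smallest p among those not called, by library, with the mean and SD of each group. In the top row the groups do not overlap, and below it only those of Mapk14 do not.

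Levels were compared between genes as CPM per kb of merged exon, and they spanned a wide range within every family. The order of the members depends on the length used, and some of the changes per kb of coding sequence are given. Among the Map4k genes, Map4k2, Map4k1 (HPK1, a negative regulator of T cell receptor signalling) and Map4k4 stood at 104 ± 8.84, 58.3 ± 1.54 and 54.7 ± 1.31 CPM per kb in the controls (SD, n = 4). Map4k5 and Map4k3 were far lower, at 2.13 ± 0.232 and 1.20 ± 0.0776. In Ndrg3TKO, Map4k1 was at 58.2 ± 0.901, and per kb of coding sequence, over all libraries, Map4k4 was above it, at 126.0 against 70.3. The spread of Map4k1 within groups (SD of log2 CPM 0.0315) was lower than that of all but 0.909% of the tested genes. Map4k5 had 507, 462, 561 and 592 normalised counts in the controls and 511, 389, 492 and 425 in Ndrg3TKO. Its groups overlapped, and it was not called (log2 fold change -0.23, SE 0.104, edgeR adjusted p = 0.446).

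**Figure D4:**
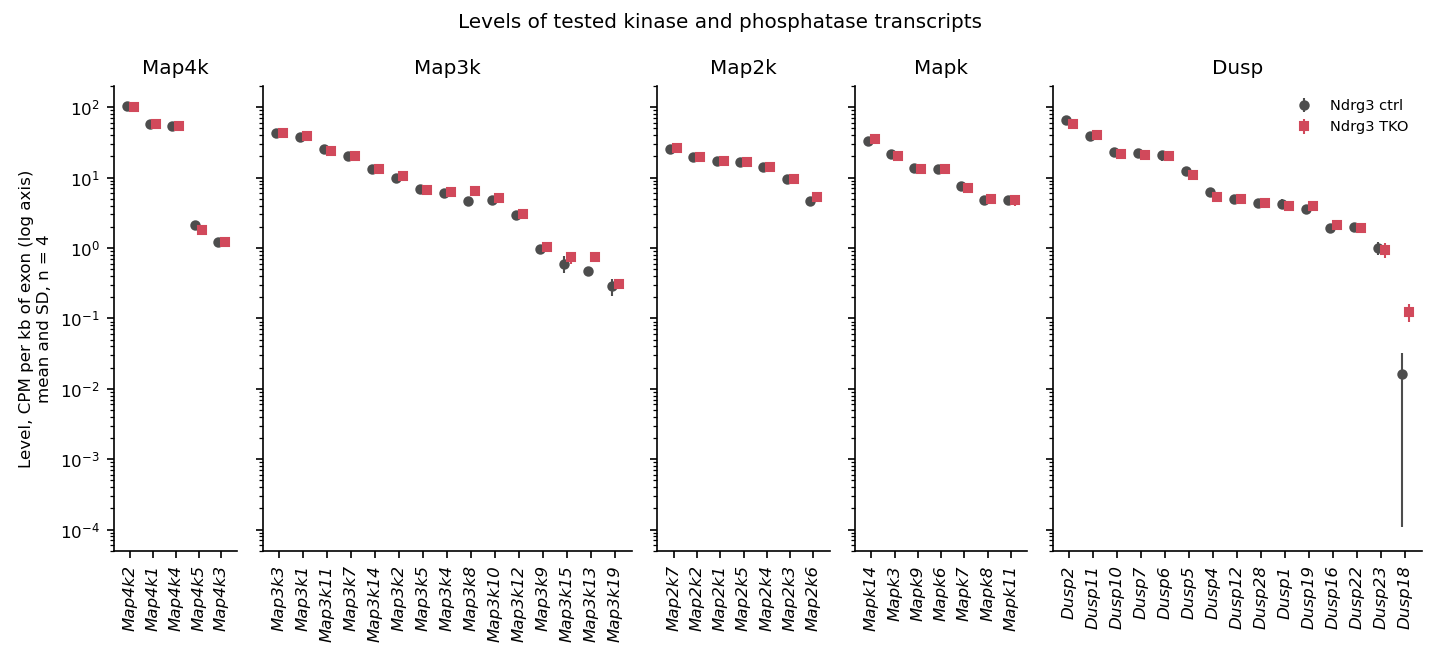
Level of each tested member reported here in CPM per kb of exon on a log axis, as mean and SD of 4 libraries per group, ordered by level within its family. Control and Ndrg3TKO values lie close together in most members, and Dusp18 and Map3k13 stand apart near the bottom of their families.

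The Map3k tier was led by Map3k3 (MEKK3) at 42.7 ± 0.925 and Map3k1 (MEKK1) at 37.7 ± 2.84 CPM per kb in the controls, followed by Map3k11 (MLK3) at 25.4 ± 1.29. Map3k7 (TAK1), the activator of the NF-kappaB, JNK and p38 pathways, was at 20.3 ± 0.109, and Map3k14 (NIK), the kinase of the alternative NF-kappaB pathway, was at 13.1 ± 0.386. Per kb of coding sequence, over all libraries, the order was Map3k3 at 91.5, Map3k2 (MEKK2) at 76.6, Map3k7 at 71.8, Map3k1 at 64.1 and Map3k11 at 41.5. Of the called members, Map3k8 ranked 9 among the 18 Map3k genes per kb of exon, at 4.72 ± 0.492 in the controls and 6.51 ± 0.655 in Ndrg3TKO. Map3k13 was among the lower ones, with rank 14, at 0.465 ± 0.0398 and 0.756 ± 0.0732. The log2 fold change was positive in 13 of the 15 tested Map3k genes, with a median of 0.07, and in 48.8% of all genes tested, but 11 of the 15 differed by less than 0.1. Map3k11 was the only Map3k gene below -0.1, with 2994, 3371, 3304 and 3249 normalised counts in the controls and 2969, 3137, 2899 and 2964 in Ndrg3TKO. Its groups overlapped (log2 fold change -0.11, SE 0.0514, edgeR adjusted p = 0.462).

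All 7 Map2k genes were expressed and none was called. Map2k1 and Map2k2, the MEK kinases of ERK, were at 17.5 ± 0.673 and 19.9 ± 0.367 CPM per kb in the controls and 17.1 ± 0.349 and 19.6 ± 0.852 in Ndrg3TKO. Map2k7 and Map2k4, the activators of JNK, were at 25.7 ± 1.62 and 14.4 ± 0.349 in the controls. Map2k5, the kinase of ERK5, was at 16.6 ± 1.19. Per kb of coding sequence Map2k2 came before Map2k7, at 72.5 and 69.2. Map2k3 and Map2k6 activate p38, and Map2k3 made up 67.5% ± 2.65 of their joint level in the controls and 64.9% ± 2.21 in Ndrg3TKO. Map2k6 had 500.4, 448, 454 and 441 normalised counts in the controls and 515, 460.3, 552 and 551 in Ndrg3TKO. Most Ndrg3TKO libraries were higher, but the groups overlapped (log2 fold change 0.17, SE 0.0836, edgeR adjusted p = 0.482).

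Among the MAP kinases themselves, 8 of 13 were tested and none was called. Mapk3 (ERK1), the target of the MEK kinases, was at 21.6 ± 0.779 CPM per kb in the controls and 20.3 ± 1.26 in Ndrg3TKO. JNK transcripts came from Mapk9 and Mapk8, with 73.8% ± 1.58 from Mapk9 in the controls (62.3% by coding length over all libraries), and the neuronal Mapk10 had no count in any library. Mapk14 gave 87.2% ± 0.919 of the p38 level in the controls and Mapk11 12.7% ± 0.874, while Mapk12 had at most 9 counts in a library and Mapk13 none.

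Mapk14 was the only MAP kinase whose groups did not overlap. It had 4135, 4288, 4287 and 4121 normalised counts in the controls and 4340.0, 4574, 4489 and 4480.3 in Ndrg3TKO. The difference was small, 0.09 on the log2 scale (SE 0.0450, edgeR adjusted p = 0.515), and the closest libraries of the 2 groups were 4288 and 4340.0.

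The Dusp family was the most varied. Dusp2 (PAC-1), a lymphocyte phosphatase of ERK and p38, was the highest per kb of exon, at 65.4 ± 6.62 in the controls and 57.6 ± 5.30 in Ndrg3TKO. Dusp11, which acts on RNA 5′ ends rather than on MAP kinases, followed at 39.2 ± 1.80, and it came first per kb of coding sequence. Dusp10 (MKP5), a phosphatase of JNK and p38, was at 23.4 ± 1.38, and the cytoplasmic ERK phosphatases Dusp7 and Dusp6 were at 22.4 ± 0.480 and 20.6 ± 3.50. Dusp1 (MKP1), often the leading early-induced member in other cells, was at 4.28 ± 0.642. Of the summed level of the 10 typical MAP kinase phosphatases, Dusp2 gave 41.7% ± 1.64 in the controls and 40.4% ± 1.67 in Ndrg3TKO.

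The nuclear, inducible phosphatases Dusp1, Dusp2, Dusp4 and Dusp5 all had negative log2 fold changes, with a median of -0.17. None was called without a covariate or a replicate block. Dusp2 had 3833, 4297, 3392 and 3636 normalised counts in the controls and 3110.3, 3740.0, 3407 and 3084 in Ndrg3TKO. Its groups overlapped between 3392 and 3740.0 (log2 fold change -0.18, SE 0.0775, edgeR adjusted p = 0.407). Dusp4 (MKP2) had 547, 543, 422 and 487 in the controls and 474, 398, 462 and 349.8 in Ndrg3TKO, also overlapping (log2 fold change -0.25, SE 0.112, edgeR adjusted p = 0.445). Dusp5 and Dusp1 differed by -0.17 (SE 0.115) and -0.12 (SE 0.108). With the presence of Y-linked transcripts as a covariate, edgeR called Dusp2 lower (log2 fold change -0.24, adjusted p = 0.0219), beside 1.2% of all genes called lower in that fit. Among the libraries with Y-linked transcripts Dusp2 was at 4297 in the control and at 3407 and 3740.0 in Ndrg3TKO, and among the others at 3392 to 3833 and at 3084 and 3110.3. Dusp4 was not called with that covariate (adjusted p = 0.206).

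None of the remaining MAP kinase phosphatases was called. Dusp7 and Dusp10 had log2 fold changes of -0.10 (SE 0.0576) and -0.11 (SE 0.0611), and Dusp16 (MKP7), a JNK and p38 phosphatase, had 0.14 (SE 0.0831). Dusp6, a feedback inhibitor that is induced by ERK, was at -0.05 (SE 0.106), and its sign turned to 0.04 without Ndrg3ctrl replicate 1 and to 0.00 without Ndrg3ctrl replicate 2. Its controls ranged from 1514 to 2182 normalised counts and its Ndrg3TKO libraries from 1622 to 1934, within the control range. Of the small and atypical Dusp genes outside the MAP kinase phosphatases, Dusp19 had a log2 fold change of 0.12 (SE 0.0942), and Dusp11, Dusp12, Dusp22, Dusp23 and Dusp28 lay within 0.1 of no difference.

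The spread between libraries differed by family. The median SD of log2 CPM within groups was 0.0903 over the tested members and 0.132 over all genes. Neither the members and all genes nor the families were matched for level, and the part of level in this spread was not tested. It was 0.0673 in the Mapk, 0.0747 in the Map2k and 0.137 in the Dusp genes. Mapk14, Map4k1 and Map3k3 had the lowest values, 0.0315, 0.0315 and 0.0336, and Dusp18 the highest, 0.518. Dusp18 was also the tested member with the lowest level.

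In 17 members the counts were too low to test. Map3k6, Map3k20, Map3k21, Mapk4, Mapk10, Mapk12, Mapk13, Mapk15, Dusp3, Dusp8, Dusp9, Dusp13, Dusp14, Dusp15, Dusp21, Dusp26 and Dusp27 had at most 13 counts in any library. Of these, Map3k21, Mapk10, Mapk13, Dusp15, Dusp21 and Dusp26 had none in any library, which allows up to 3 counts, or 0.0921 to 0.147 CPM, in each.

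The genes around the cascade were followed in 5 lists, from Ras activation to the early target genes. Of 96 listed symbols, 94 were matched to the count table and 84 were tested. 4 were called, or 4.76%, with 1 higher and 3 lower. Over all genes tested 1.15% were called, 0.793% higher and 0.355% lower. The lists were chosen with earlier results of these data known. In the Ras activation list, 2 of 16 tested genes were called. Rasgrp4, a guanine nucleotide exchange factor of Ras, was higher, with 348, 259, 237 and 281 normalised counts in the controls and 620.1, 372, 473 and 455 in Ndrg3TKO (log2 fold change 0.77, SE 0.154, edgeR adjusted p = 0.0339). Rasa3, a GTPase-activating protein that turns Ras and Rap1 off, was lower, with 12033 to 13232 normalised counts in the controls and 10488 to 10813 in Ndrg3TKO (log2 fold change -0.27, SE 0.0495, edgeR adjusted p = 0.0147). The groups did not overlap in either gene. No gene was called among 22 tested Raf genes and scaffolds, 10 feedback inhibitors outside the Dusp family and 10 downstream kinases. Among them Braf had the smallest adjusted p (log2 fold change 0.24, SE 0.0617, edgeR adjusted p = 0.0951).

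Of the 26 tested transcription factors and early genes, 2 were called, both lower, beside 0.355% of all genes tested called lower. Egr1, an immediate early gene downstream of ERK, had 6191, 6849, 5776 and 5226 normalised counts in the controls and 4917, 4472, 4684 and 3813 in Ndrg3TKO (log2 fold change -0.43, SE 0.0889, edgeR adjusted p = 0.0422). Fosl2, a subunit of AP-1, had 1732 to 2007 in the controls and 1380 to 1554 in Ndrg3TKO (log2 fold change -0.30, SE 0.0602, edgeR adjusted p = 0.0252). Ier2 and Myc had log2 fold changes of -0.27 (SE 0.0773) and -0.23 (SE 0.0978) and were not called. Fos was at 0.12 (SE 0.217), Egr2 at -0.13 (SE 0.0861), Junb at -0.05 (SE 0.0802) and Nr4a1 at -0.13 (SE 0.140), also not called. Egr1 is also on a list of 7 genes that respond to tissue handling, whose summed level was 258 to 337 CPM in the controls and 198 to 240 CPM in Ndrg3TKO. Egr1 itself made up 181 to 237 CPM of that sum in the controls and 132 to 170 CPM in Ndrg3TKO, and it was the only gene of the list called, while Hspa1a was under 1 CPM and Atf3 close to 0. The part of handling in the Egr1, Fosl2 and Dusp values was not tested.

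The calls of these 4 genes depended on single libraries. Rasa3 was not called without Ndrg3ctrl replicate 1 or 4 or Ndrg3TKO replicate 1, 3 or 4 (edgeR adjusted p from 0.0539 to 0.0591). Fosl2 was not called without Ndrg3ctrl replicate 1 or 3 or Ndrg3TKO replicate 1, 3 or 4 (edgeR adjusted p from 0.0569 to 0.104). Egr1 lost its call without Ndrg3ctrl replicate 1, 2 or 3 or Ndrg3TKO replicate 2, 3 or 4 (edgeR adjusted p from 0.0683 to 0.134). Rasgrp4 lost it without Ndrg3ctrl replicate 2, 3 or 4 or Ndrg3TKO replicate 1, 3 or 4 (edgeR adjusted p from 0.0604 to 0.124), and by limma-voom (adjusted p = 0.0546). The sign of each held throughout.

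**Figure D5:**
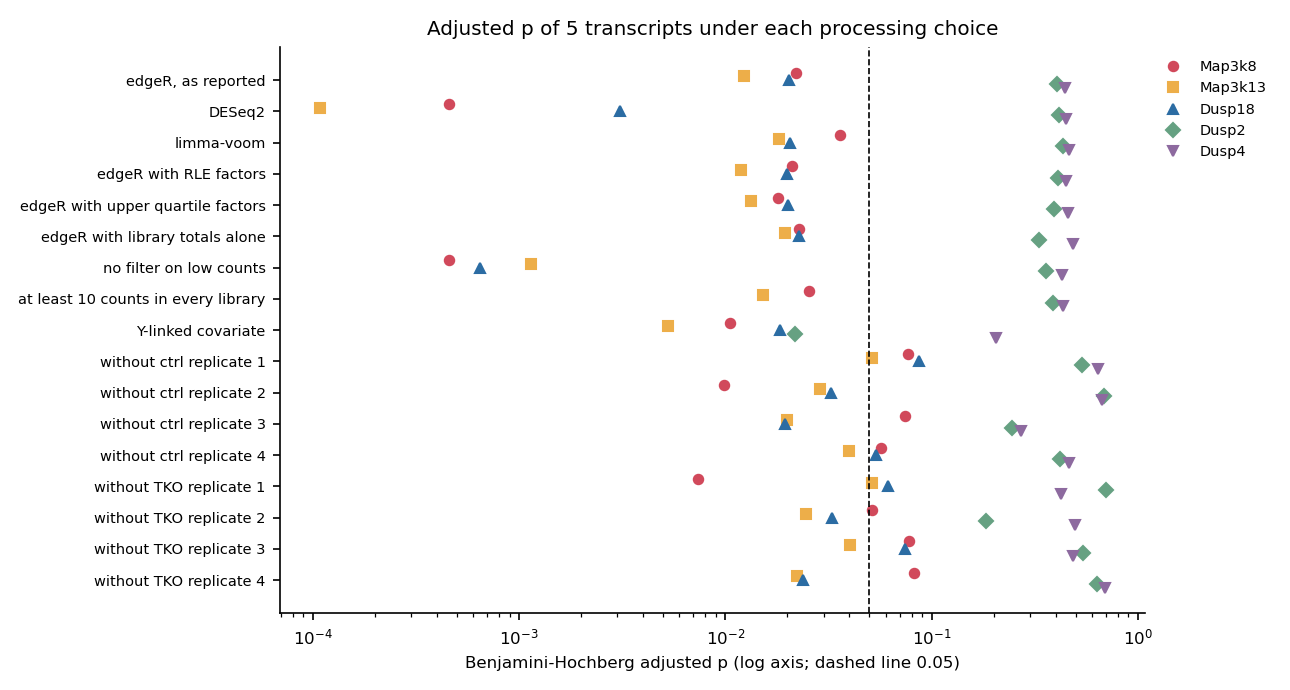
Benjamini-Hochberg adjusted p of the 3 called members and of Dusp2 and Dusp4, on a log axis with the threshold of 0.05 dashed. Each processing choice is shown except the fits with a replicate block, which also called Dusp2 lower. The fit with that block and the Y-linked covariate called Dusp4 lower too. Over the whole table the block fit called 800 genes in either direction, and the fit with block and covariate 1187. Leaving out a library moves the called members across the line, and the Y-linked covariate moves Dusp2 to 0.0219.

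Exons of 11 tested members overlap those of another tested gene, 3 of them on the same strand. Map4k5 shares 548 bases with Atl1, Map3k11 89 with Pcnx3 and Map3k12 1573 with the far more abundant Pcbp2, all on opposite strands. The libraries were made with a stranded kit, and the strand setting of the counting is not given in the sources used here, so the levels of these genes are uncertain to that extent.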

How the data were processed

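CD8SP thymocyte RNA was measured in 4 Ndrg3ctrl and 4 Ndrg3TKO libraries. The deposited values are raw counts per gene, which the authors obtained with featureCounts after trimming (cutadapt) and STAR alignment on GRCm38.p4. These counts were used as deposited. Symbols, positions and lengths were taken from GENCODE M21 (GRCm38), which matched 47224 genes, or 98.5%. The paper names an earlier release with its alignment. The exons, overlaps and lengths given here need therefore not be those behind the counts. In edgeR 4.0.16 (R 4.3.3), low genes were removed by filterByExpr, libraries were normalised by TMM, and groups were compared by the robust quasi-likelihood F test without a covariate. P-values were adjusted by Benjamini-Hochberg over all 14633 tested genes. Standard errors were derived from the fold change and its F statistic. DESeq2 1.42.0, limma-voom (limma 3.58.1), other scalings and filters, a Y-linked covariate, a replicate block and the loss of each library were alternatives. The Y-linked covariate was set at over 10 CPM from 4 genes, without TMM correction. The fit was tested on simulated data. Members, lists and tests were chosen with earlier results of these data known. Genes named singly were the called members, the 3 with the highest level in each family, fixed members of each branch, the 6 uncalled members with the smallest p, called list genes, and genes overlapping or beside a called member. Map3k15, the uncalled early genes, Braf, 4921536K21Rik, Slc35e4 and the remaining members, including all untested ones, were named after their values were seen. 1 tested member is not reported singly here.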

Additional observations from a re-analysis of the deposited data

Results flagged for a closer look

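In 48 groups of 4 libraries, covering the singly followed genes and the library totals, 2 libraries stood apart by Dixon's test at the 95% level, where chance gives about 1 in 20, or 2.4. For Map3k8, Ndrg3TKO replicate 1 had 719.8 normalised counts, below the other Ndrg3TKO libraries at 884 to 898. Without it the log2 fold change was 0.54 (edgeR adjusted p = 0.00735). For Dusp10, Ndrg3TKO replicate 4 had 1725 normalised counts, below 1954 to 1994 in the others, and without it the log2 fold change was -0.06.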

How the results depend on the processing

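The 3 called members kept a positive log2 fold change in every alternative that gave a value, and all 3 were called by DESeq2, by limma-voom, with RLE, upper quartile or total scaling and without a filter. With at least 10 counts in every library Dusp18 could not be tested. Leaving out a library gave 0 to 3 members called higher, 0 called lower, 0 to 5 list genes and 90 to 158 genes in all, with 90 without Ndrg3TKO replicate 3. The genes called over the table numbered 309 with DESeq2, 274 without a filter and 437 with the Y-linked covariate, which also called 1 member lower and 7 list genes. The replicate numbers were not taken to pair the libraries, since the correlations of same-numbered deviations were 0.181, 0.415, -0.055 and 0.301 and 1 of the 4 is not above 0.1, which does not show that pairing is absent. With the replicate block 800 genes, 1 member lower (Dusp2) and 10 list genes were called, and with the replicate block and the Y-linked covariate 1187 genes, 2 members lower (Dusp2 and Dusp4) and 11 list genes. The log2 fold change of Dusp6 ranged from -0.1399 to 0.0358 over the fits without a library, and was above 0 without Ndrg3ctrl replicate 1 (0.0358) or 2 (0.0035). Dusp18 rests on few counts, and levels per kb of coding sequence differed from those per kb of exon in most members.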
